A study of Mus musculus with 48 samples.

Results

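A set of 6 genes of the cellular fuel switch were followed through the day in epidermal stem cells (EpSCs), the basal cells that renew the outer skin: Pdk4, Angptl4, Cpt1a, Lpl, Ucp2 and Ppard. A probe set was taken for a gene when it carried that gene's symbol and no other, and where a gene had several, the one with the highest mean of 48 arrays stood for it. This gave 5 of the 6 genes, out of 17097 genes named in this way and 12823 that were bright enough to test. Ucp2, an uncoupling protein of the inner mitochondrial membrane, had no such probe set in the probe table and is not analysed here. The EpSCs came from the epidermis of wild-type female C57B6/J mice that were 102 to 116 weeks old (aged) or 8 weeks old (young). Each age was sampled at zeitgeber times ZT0, ZT4, ZT8, ZT12, ZT16 and ZT20, with 4 mice per age and time, and ZT0 is by convention lights on. RNA of each mouse was measured on a 1-colour Affymetrix array, and the number of mice limits the precision.

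Cells choose between burning glucose and burning fatty acids, and a small set of genes sets that choice. Pyruvate dehydrogenase kinases switch off the enzyme complex that feeds pyruvate into the mitochondrial cycle, while carnitine palmitoyltransferase lets long fatty acids into the mitochondrion. Fatty acids themselves bind the PPAR family of nuclear receptors, which raise transcription of many of these genes. In the epidermis, lipids serve both as fuel and as material of the skin barrier.

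Pdk4 encodes the kinase isoform that is raised by fasting, fatty acids and glucocorticoids (chr6:5483351-5496278, GRCm38.p6, as for all genes here). Angptl4 is a secreted inhibitor of lipoprotein lipase and a classic PPAR target (chr17:33774900-33781575). Lpl is that lipase, which frees fatty acids from circulating triglyceride (chr8:68880555-68906932). Cpt1a is the outer mitochondrial membrane enzyme that commits fatty acids to oxidation (chr19:3322326-3385735). Ppard is a fatty acid sensing nuclear receptor that is widely expressed in skin (chr17:28232754-28301469), and Ucp2 lies at chr7:100493337-100499629.

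Promoter windows of 300 bases, mostly upstream of the start of transcription with a short stretch after it, were available from RefSeq (GRCm38.p6) for 4 of the 6 genes. The windows of Pdk4, the gene with the widest daily range, and of Cpt1a, the gene with a motif match, are shown 5′ to 3′ on the strand of the gene. Pdk4 is on the minus strand at chr6:5496229-5496528, and Cpt1a on the plus strand at chr19:3323051-3323350, which lies inside the annotated gene because the table uses a later start site. Capitals mark the nuclear receptor motif AGGTCA, read here on the opposite strand.
Pdk4 promoter: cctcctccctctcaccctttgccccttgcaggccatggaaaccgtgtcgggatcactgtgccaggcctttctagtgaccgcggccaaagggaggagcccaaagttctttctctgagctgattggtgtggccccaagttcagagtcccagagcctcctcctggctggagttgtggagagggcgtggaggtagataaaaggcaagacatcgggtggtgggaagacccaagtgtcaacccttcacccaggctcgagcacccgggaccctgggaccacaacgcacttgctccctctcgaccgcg
Cpt1a promoter: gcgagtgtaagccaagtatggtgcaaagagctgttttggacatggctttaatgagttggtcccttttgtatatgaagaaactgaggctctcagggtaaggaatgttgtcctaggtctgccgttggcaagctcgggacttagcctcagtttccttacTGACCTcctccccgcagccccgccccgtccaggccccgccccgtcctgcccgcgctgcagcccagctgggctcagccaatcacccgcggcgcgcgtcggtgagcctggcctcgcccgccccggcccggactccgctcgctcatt
The motifs searched, on both strands, were AGGTCA, the PPAR element (a direct repeat of AGGTCA with 1 base between the copies, which thus contains AGGTCA), the glucocorticoid motif AGAACA, the E-box CACGTG and the CREB site TGACGTCA. The match in Cpt1a begins at position -94 from the start and is the only one in the 4 windows. Of all 32851 mouse windows of this length, AGGTCA occurs in 16.3%, the full PPAR element in 0.0396%, AGAACA in 19%, the E-box in 7.15% and the CREB site in 1.79%. A match is a string of letters and not a measured site.

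The median log2 signal of an array was between 4.784 and 5.039, and pairs of arrays correlated at 0.963 to 0.997. All 6 basal keratinocyte markers were above the limit for dim genes (3.96), led by Krt5 at 12.69. So were 5 of 6 suprabasal keratinocyte markers, led by Krt10 at 11.71. Their summed level was 12.92 to 13.61 in aged and 12.82 to 13.52 in young arrays. Krt15 of the hair follicle bulge list was at 12.08, and Plet1 of the upper follicle and sebaceous gland list at 11.38. Of 8 adipocyte markers 5 were in the probe table, and Adipoq, Fabp4 and Lep were below that limit. The summed level of these 5 was 6.58 to 6.90 in aged and 6.55 to 7.02 in young arrays. The 4 measured T cell markers were all higher in aged arrays over the day (limma), with a summed level of 9.07 to 10.67 in aged and 8.04 to 10.09 in young arrays. The most abundant was Thy1. In these bulk samples, fewer cells of a type and less RNA per cell cannot be told apart.

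Pdk4, Angptl4 and Cpt1a ran a different daily course at each age, and the clearest separation was at ZT20. There all 3 were at or near their daily low in young cells and 1.76 to 3.201 times as high in aged cells, 3 of 5 genes against 0.99% of all genes. At ZT16 the order was turned for Pdk4 and Angptl4, 2 of 5 genes against 1.47% of all genes. They stood at their daily high in young cells, and aged cells had 0.40 and 0.49 times that signal. The test of a difference in the course between the ages, of any shape, passed for these 3 of the 5 genes, against 2.59% of all genes tested (limma F test of age by time; adjusted p = 0.000338 for Pdk4, 0.00165 for Angptl4 and 0.0136 for Cpt1a). Without the second young mouse at ZT20 the call for Cpt1a was lost (adjusted p = 0.0618).

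**Figure D1:**
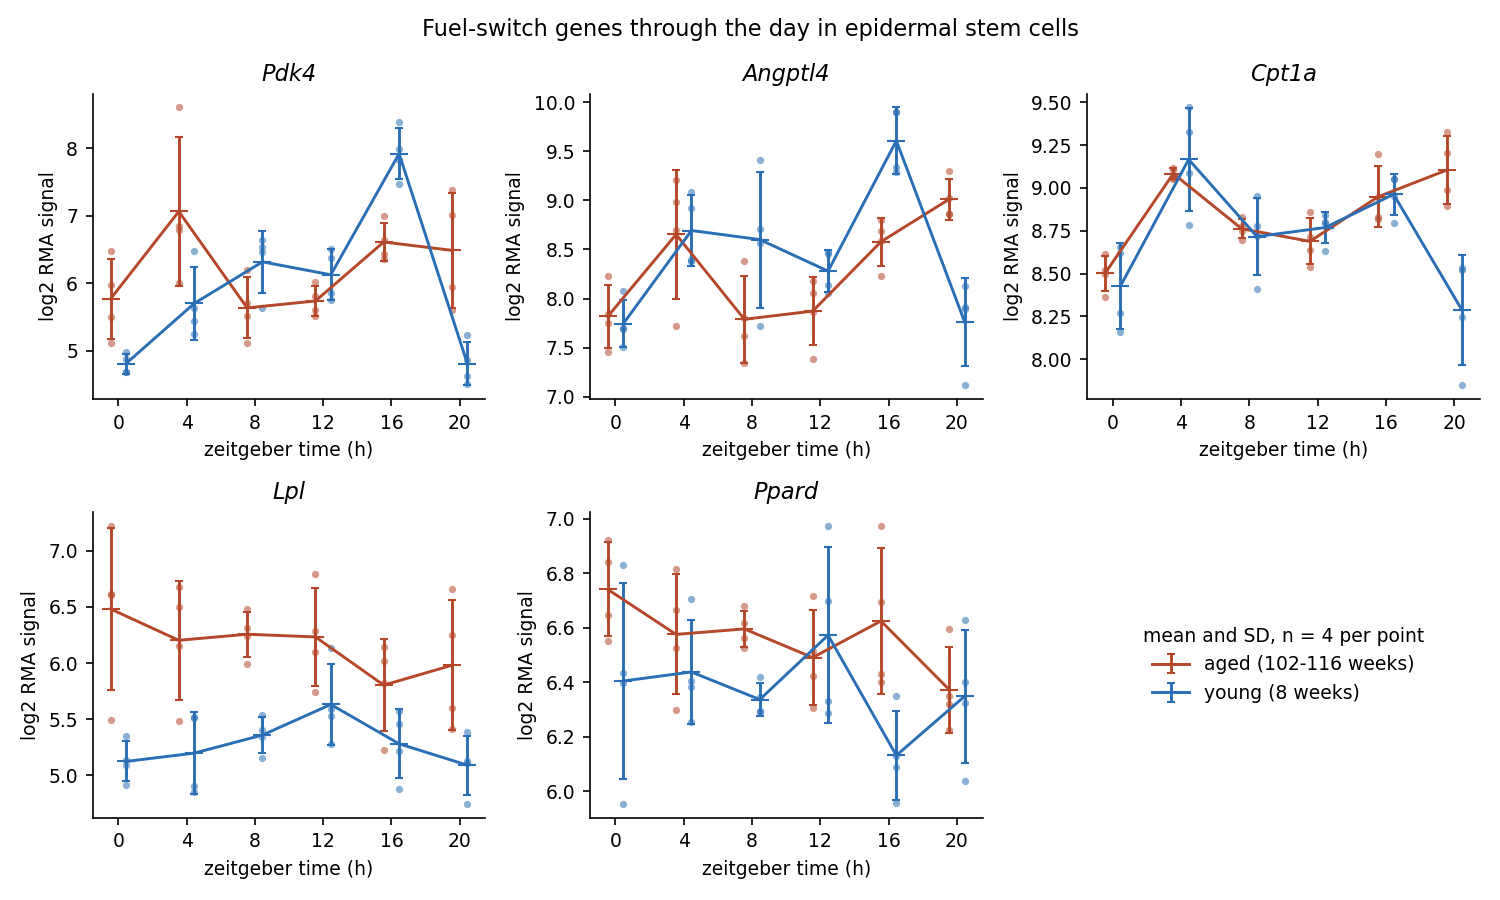
Log2 RMA signal of the 5 measured genes against zeitgeber time, with aged mice in red to the left and young mice in blue to the right at each time; points are arrays, and lines join means with SD (n = 4). Young Pdk4 and Angptl4 stand highest at ZT16 (means 7.92 and 9.61), aged Pdk4, Angptl4 and Cpt1a stand above young at ZT20, and aged Lpl runs above young all day.

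Pdk4 had the widest daily range of the 5 genes in young cells. At ZT16 its log2 signal was 6.43, 6.65, 7.002 and 6.36 in aged cells, against 7.47, 7.99, 7.82 and 8.39 in young cells. Every young mouse lay above every aged mouse, and these 4 young arrays also lay above all other young arrays (highest 6.64, at ZT8). The difference, aged minus young, was -1.31 ± 0.36 on the log2 scale (SE; 95% interval -2.03 to -0.58; limma adjusted p = 0.031). At ZT20 Pdk4 was at 5.95, 7.38, 7.01 and 5.60 in aged cells, against 5.24, 4.62, 4.86 and 4.51 in young cells. Again the ages did not overlap, but now the aged mice were above. The difference was 1.68 ± 0.36 (0.95 to 2.40), a fold of 3.201 (limma adjusted p = 0.00753). The ZT20 call was lost without the second aged mouse there (1.38, adjusted p = 0.0628).

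At ZT4 Pdk4 was also higher in aged cells. It was at 8.60, 6.78, 6.85 and 6.01 in aged mice, against 5.44, 6.48, 5.25 and 5.63 in young mice. Here the ages overlapped, and the first aged mouse held the highest Pdk4 signal of all arrays. The difference was 1.36 ± 0.36 (limma adjusted p = 0.0117), and it was lost without that mouse (0.85, adjusted p = 0.137) or without the third young mouse (1.21, adjusted p = 0.0576). At ZT0 aged cells ranged from 5.12 to 6.48 and young cells from 4.68 to 4.98. The ages did not overlap at ZT0, yet the difference of 0.96 missed the threshold (adjusted p = 0.116). At ZT8 the ranges were 5.11 to 6.20 in aged and 5.63 to 6.64 in young cells, and at ZT12 they were 5.52 to 6.01 in aged and 5.75 to 6.51 in young cells. Neither of these differences passed.

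Over the day, aged Pdk4 was highest at ZT4 (7.06 ± 1.10, SD, n = 4) and lowest at ZT8 (5.63 ± 0.45), a range of 2.69-fold. Young Pdk4 was highest at ZT16 (7.92 ± 0.38) and lowest at ZT20 (4.81 ± 0.32), a range of 8.64-fold. The aged values at ZT4, ZT16 (6.61) and ZT20 (6.49) did not differ beyond their spread, and neither did the young values at ZT20 and ZT0 (4.81 each).

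Angptl4 followed Pdk4 at ZT16 and ZT20 but not at ZT4. At ZT16 it was at 8.80, 8.69, 8.23 and 8.59 in aged cells, against 9.29, 9.90, 9.34 and 9.90 in young cells. All young mice were above all aged mice. The difference was -1.03 ± 0.27 (-1.57 to -0.48; limma adjusted p = 0.0242). At ZT20 it was at 8.86, 8.86, 9.30 and 9.02 in aged cells, against 8.13, 7.12, 7.91 and 7.89 in young cells. The ages were again fully apart, with aged mice above. The difference was 1.25 ± 0.27 (0.70 to 1.80), a fold of 2.38 (limma adjusted p = 0.00848). Without the second young mouse at ZT20, which held the lowest Angptl4 signal of the series, the difference was 1.03 (adjusted p = 0.0713).

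At ZT4 the inhibitor ranged from 7.72 to 9.21 in aged and from 8.38 to 9.08 in young cells, and the mean was 8.65 in aged and 8.69 in young cells. At ZT8 it ranged from 7.35 to 8.39 in aged and from 7.72 to 9.41 in young cells. That difference was -0.81, and it did not pass (adjusted p = 0.116), though it did without aged mouse 4 (0.0438) or young mouse 1 (0.0224) of that time. Aged Angptl4 was highest at ZT20 (9.01 ± 0.21) and lowest at ZT8 (7.79 ± 0.44), a range of 2.33-fold. Young Angptl4 was highest at ZT16 (9.61 ± 0.34) and lowest at ZT0 (7.74 ± 0.24), a range of 3.64-fold, with ZT20 (7.76) no further from ZT0 than the spread. A dimmer Angptl4 probe set, with a mean of 4.56, gave the same directions at ZT16 (-1.09, adjusted p = 0.000937) and ZT20 (0.97, adjusted p = 0.00526) in limma. At ZT4 the probe sets disagreed, since the dimmer one was lower in aged cells (-0.72, adjusted p = 0.0184). Their signs also differed at ZT0, ZT8 and ZT12, where neither passed. At ZT8 the dimmer one was at 0.18 (limma adjusted p = 0.816), against -0.81 for the brighter one.

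Cpt1a, the gate of fatty acid oxidation, was called between the ages at ZT20 and at no other time. At ZT20 it was at 8.89, 8.99, 9.33 and 9.21 in aged cells, against 8.53, 7.85, 8.25 and 8.52 in young cells. No young mouse reached the lowest aged mouse. The difference was 0.82 ± 0.13 (0.55 to 1.09), a fold of 1.76 (limma adjusted p = 0.000216). At the 5 other times the intervals of the difference reached from -0.35 at the lowest to 0.34 at the highest, and each contained 0. At ZT4, its high in young cells, Cpt1a was at 9.11, 9.12, 9.06 and 9.05 in aged cells, against 9.47, 9.33, 8.78 and 9.09 in young cells. The aged mice sat close together within the young range. At ZT0 it ranged from 8.36 to 8.61 in aged and from 8.16 to 8.66 in young cells, and at ZT16 from 8.82 to 9.20 in aged and from 8.79 to 9.05 in young cells. Aged Cpt1a was highest at ZT20 (9.10 ± 0.20) and lowest at ZT0 (8.50 ± 0.10). Young Cpt1a was highest at ZT4 (9.17 ± 0.30) and lowest at ZT20 (8.29 ± 0.32). The daily range was 1.52-fold in aged and 1.84-fold in young cells.

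**Figure D2:**
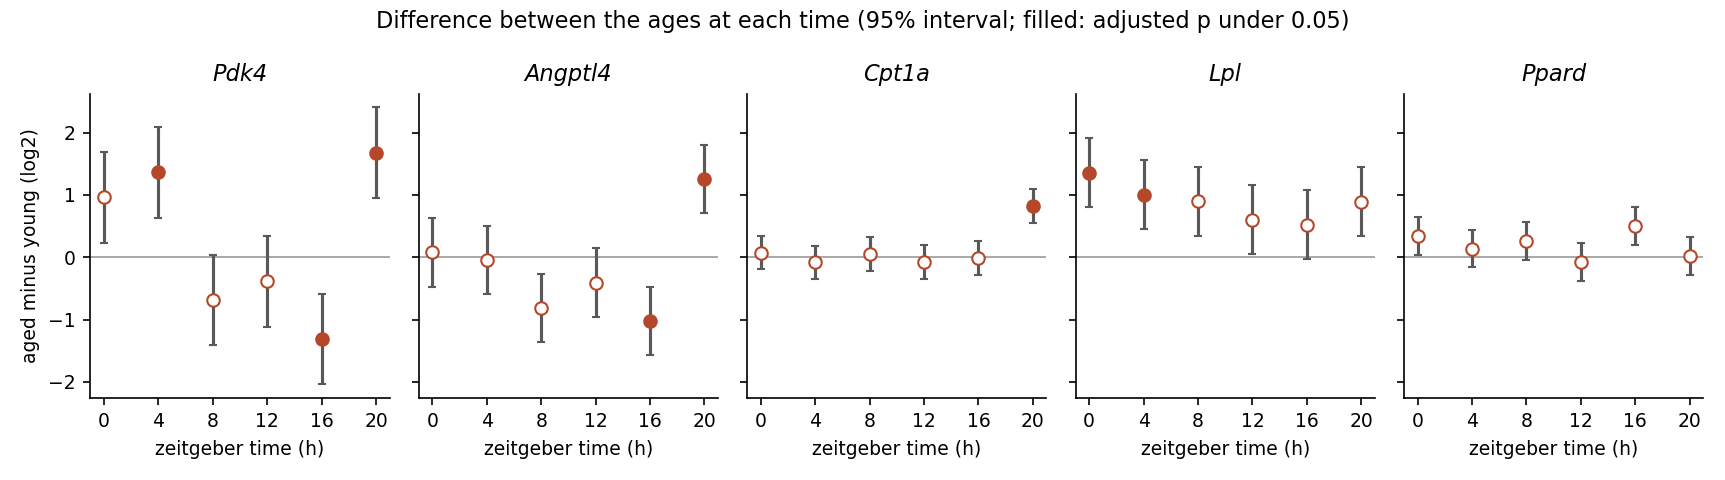
Aged minus young log2 difference of the 5 genes at each zeitgeber time, with 95% intervals of the limma fit (4 aged and 4 young mice per time); filled points passed the test over all genes. Pdk4, Angptl4 and Cpt1a are filled above 0 at ZT20 (1.68, 1.25 and 0.82), Pdk4 and Angptl4 below 0 at ZT16, and all 6 Lpl points lie above 0.

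Counted by overlap, 4 of the 5 genes had every aged array above every young one at ZT20, Ppard being the exception, against 3.28% of all genes. The same held for 2 genes at ZT0, 2 at ZT8, 1 at ZT16 and 0 at ZT4 and ZT12. Every aged array was below every young one for 2 genes at ZT16. The share of all genes without overlap is not given for these other times, so the counts there have no background. At the earlier times 1 gene was called higher in aged cells at ZT0 (Lpl; 2.73% of all genes) and 2 at ZT4 (Pdk4 and Lpl; 3.84%). None was called by limma at ZT8 (2.14% of all genes in either direction) or ZT12 (1.31%). With unadjusted p, 2 genes were under 0.05 at ZT8, Angptl4 and Lpl, and 1 at ZT12, Lpl. With array weights Angptl4 (adjusted p = 0.0237) and Lpl (0.00575) did pass at ZT8.

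Of the T cell markers, 1 of 4 was called between the ages at ZT16 (higher in aged) and 0 of 4 at ZT20 (limma; 1 with an unadjusted p under 0.05). Their summed level at ZT16 was 9.07 to 10.24 in aged and 8.04 to 8.88 in young arrays, and at ZT20 it was 9.50 to 10.31 in aged and 9.15 to 9.68 in young arrays. With the T cell score in the model, Pdk4 and Angptl4 no longer passed at ZT16 (limma adjusted p = 0.311 and 0.247). With the scores of 5 other cell types in the model Pdk4 and Angptl4 did not pass either (-0.81 and -0.79, limma adjusted p = 0.272 and 0.119). These 5 types were suprabasal keratinocyte, hair follicle bulge, fibroblast, adipocyte, and Langerhans and myeloid cell. The 3 calls at ZT20 passed with the T cell score and with these scores. At ZT16 the summed suprabasal level was 13.15 to 13.57 in aged and 12.82 to 13.26 in young arrays. Both ZT16 calls also depended on single mice, while the differences stayed about as large. Pdk4 was lost without aged mouse 1, 2 or 4 or young mouse 2, 3 or 4 of that time (-1.34 to -1.15, adjusted p up to 0.133), and Angptl4 without aged mouse 3 or 4 or young mouse 2 or 4 (-1.03 to -0.91, adjusted p up to 0.0972).

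Time of day itself moved the same 3 genes at both ages. In aged cells Pdk4, Angptl4 and Cpt1a passed the test among the 6 time means, 3 of 5 genes against 8.36% of all genes (limma F test; adjusted p = 0.0156, 0.00204 and 0.00593). In young cells the same 3 passed, against 17.5% (1.15e-07, 1.23e-05 and 3.17e-05). Lpl and Ppard did not pass at either age. When each age was fitted alone, aged Pdk4 did not pass (adjusted p = 0.0985).

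A single 24 h wave described these courses only in part. None of the 5 genes passed the 24 h test in aged cells, where 1.36% of all genes did, and none had an unadjusted p under 0.05 there (lowest 0.0932, Angptl4, limma). In young cells 1 of 5 passed, against 6.27%: Pdk4, with an amplitude of 1.08 ± 0.23 (SE) and a peak at ZT12.73. The 24 h waves of the ages did not differ past the test in any of the 5 genes, nor in any gene of the series (0%), although 982 genes, Pdk4 (0.0011) and Angptl4 (0.0157) among them, had an unadjusted p under 0.05. With array weights 4 genes passed.

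By their means, Angptl4 and Cpt1a had a high at ZT4 and another at ZT16 or ZT20 at each age, as did aged Pdk4. Young Pdk4 had 1 clear high, at ZT16. Its means at ZT8 (6.32 ± 0.46, SD) and ZT12 (6.12 ± 0.38) did not differ beyond their spread. A 12 h component was added to the 24 h wave because earlier results of these data showed 2 highs a day. It can also pass for a single narrow high, so a pass is no separate support for 2 highs. In aged cells it passed for 2 of 5 genes, Pdk4 and Cpt1a, against 5.78% of all genes (limma adjusted p = 0.0456 and 0.0128; 0.0525 for Angptl4). In young cells it passed for Pdk4, Angptl4 and Cpt1a, 3 of 5 against 4.3% (adjusted p = 0.00405, 0.00103 and 0.000509). Its amplitude was 0.65 in aged and 0.87 in young cells for Pdk4 (± 0.17, SE), 0.46 in aged and 0.71 in young cells for Angptl4 (± 0.13), and 0.26 in aged and 0.35 in young cells for Cpt1a (± 0.06). Aged Pdk4 lost its call in 5 settings and without any of 18 mice taken singly (adjusted p up to 0.168, without aged mouse 1 of ZT4). Aged Angptl4 gained the call in 6 settings, its other probe set included (adjusted p = 0.0302), and when any 1 of 8 mice was left out (adjusted p from 0.0245). The amplitudes of the ages were not tested against each other, and the samples were 4 h apart, so peaks between them were not seen.

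Lpl was the gene of the set with a clear difference in level. Over the day it ranged from 5.23 to 7.22 (median 6.20) in aged cells, against 4.75 to 6.13 (median 5.31) in young cells. The mean was 6.16 ± 0.50 in aged and 5.28 ± 0.31 in young cells (SD, n = 24 each). The difference was 0.88 ± 0.11 (SE; 95% interval 0.66 to 1.10), a fold of 1.84 (limma adjusted p = 4.87e-08). In all, 2 of the 5 genes, Lpl and Ppard, differed in level over the day, against 18.6% of all genes.

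By time, Lpl was at 6.61, 5.49, 6.60 and 7.22 in aged cells at ZT0, against 5.13, 5.10, 5.35 and 4.92 in young cells. The ages did not overlap there, and the difference was 1.36 ± 0.27 (limma adjusted p = 0.00166). At ZT4 it was at 6.68, 5.48, 6.15 and 6.50 in aged cells, against 4.85, 5.51, 4.91 and 5.52 in young cells. The second aged mouse fell among the young ones, and the difference was 1.01 ± 0.27 (limma adjusted p = 0.0147). That ZT4 call was lost without aged mouse 1 or 4 or young mouse 1 or 3 (adjusted p from 0.0541 to 0.0815), and with the T cell score (0.251). Lpl did not pass the test of a different course between the ages (adjusted p = 0.705), nor at ZT20, where every aged mouse was above every young one (0.89, adjusted p = 0.107; 0.0386 without aged mouse 4). At ZT8 Lpl ranged from 5.99 to 6.48 in aged and from 5.16 to 5.54 in young cells, without overlap (0.90, adjusted p = 0.0737). At ZT12 it ranged from 5.75 to 6.80 in aged and from 5.28 to 6.13 in young cells, and at ZT16 from 5.23 to 6.14 in aged and from 4.88 to 5.57 in young cells. Those 2 times overlapped and did not pass. A second Lpl probe set lay below the limit for dim genes (mean 3.63) and was 0.19 higher in aged cells over the day (limma adjusted p = 0.00301).

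Ppard, the receptor, was 0.19 ± 0.07 higher in aged cells over the day (0.06 to 0.33), a fold of 1.14 (limma adjusted p = 0.0328). It ranged from 6.22 to 6.97 in aged and from 5.95 to 6.97 in young cells, so the ages overlapped widely. The call was lost when arrays were centred on their medians (0.17, adjusted p = 0.0657), with the T cell score (0.12, adjusted p = 0.323), and without aged mouse 3 of ZT0, aged mouse 2 of ZT16 or young mouse 4 of ZT16 (adjusted p from 0.0524 to 0.0566). At ZT16 Ppard was at 6.43, 6.97, 6.40 and 6.69 in aged cells, against 6.35, 6.09, 6.13 and 5.96 in young cells. The ages did not overlap, but the difference of 0.49 did not pass (adjusted p = 0.0582). It passed in 5 other settings and without any of 5 mice taken singly (adjusted p from 0.00189). A second Ppard probe set, with a mean of 5.62, was 0.24 higher in aged cells over the day (limma adjusted p = 0.00038). At ZT4 the probe sets disagreed, with 0.46 for the second (adjusted p = 0.00754) and 0.14 for the first (adjusted p = 0.672). The levels of Pdk4, Angptl4 and Cpt1a over the whole day did not pass, with intervals of -0.19 to 0.73, -0.51 to 0.19 and -0.04 to 0.30. The fit for level took out only a 24 h wave per age. The rest of the daily course of these genes counts there as spread and widens the intervals, so a difference in level is not excluded.

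Mice of the same age and time that had more of one gene also had more of another in 3 of the 10 pairs of genes. After the mean of each age and time was taken away, Cpt1a and Angptl4 correlated at r = 0.57 over 48 mice (rho = 0.59; 100000 permutations within groups, two-sided, adjusted p = 0.0009 and 0.0015). Pdk4 and Angptl4 correlated at r = 0.52 (rho = 0.43; permutation, adjusted p = 0.0245 and 0.0404), and Pdk4 and Lpl at r = 0.50 (rho = 0.53; permutation, adjusted p = 0.0435 and 0.0131). Without the pair of mice farthest out in the first gene, r was 0.52, 0.53 and 0.46 in the same order of pairs. Cpt1a with Angptl4 gave r = 0.34 in aged and 0.73 in young mice, Pdk4 with Angptl4 0.48 in aged and 0.62 in young mice, and Pdk4 with Lpl 0.51 in aged and 0.47 in young mice. Each pair of values came from the same array, and how many other gene pairs correlate in this way was not tested. The 3 of 10 pairs thus cannot be called particular to this set. In all 15 relations were tested, and p-values were adjusted over them.

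The Pdk4 and Angptl4 relation was lost without aged mouse 4 of ZT8 (r = 0.49, adjusted p = 0.0535) or young mouse 1 of ZT8 (r = 0.47, adjusted p = 0.0679). The Pdk4 and Lpl relation was lost without any of 21 mice taken singly, with r from 0.45 to 0.52, and when all probe sets of a gene were averaged (r = 0.45, adjusted p = 0.083). Angptl4 and Lpl, the inhibitor and its enzyme, gave r = -0.08 (permutation, adjusted p = 0.815).

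**Figure D3:**
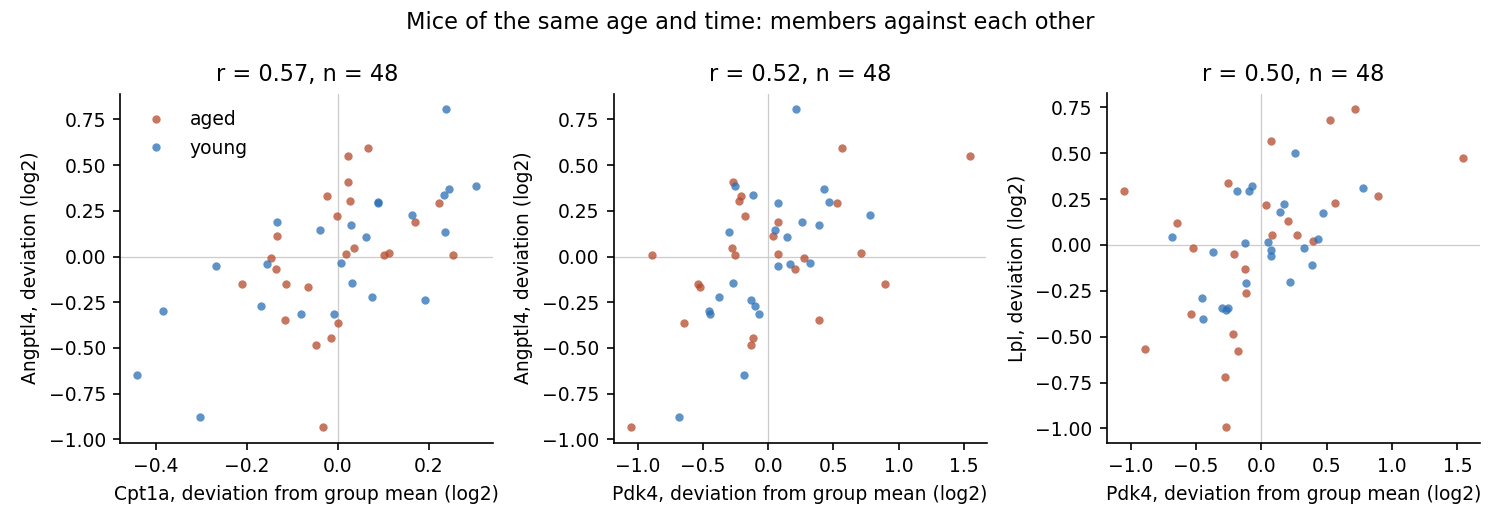
Deviation of each mouse from the mean of its age and time, in log2 units, for the 3 gene pairs that passed the permutation test; aged mice are red and young mice blue, and n = 48 in each panel. The points rise together with r = 0.57, 0.52 and 0.50, and the aged mouse with the highest Pdk4 lies far to the right in the panels of that gene.

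Glucocorticoids raise Pdk4, so Fkbp5, which the hormone induces strongly and whose product binds the hormone's receptor complex, was set beside these genes. At ZT20 Fkbp5 averaged 8.49 ± 1.03 in aged and 8.34 ± 0.38 in young cells (SD, n = 4 each; limma adjusted p = 0.936), a difference of 0.15 with a 95% interval of -0.64 to 0.95. At ZT16 it averaged 9.75 ± 0.18 in aged and 9.96 ± 0.22 in young cells (adjusted p = 0.882). At ZT8 it averaged 7.63 ± 1.04 in aged and 9.48 ± 0.29 in young cells (-1.85, adjusted p = 0.00521). At ZT4 Fkbp5, like Pdk4, was called higher in aged cells, with 9.47 ± 0.90 in aged and 8.20 ± 0.19 in young cells (1.28, adjusted p = 0.0344), and the ages overlapped. The gaps of Fkbp5 and Pdk4 had the same sign at all 6 times, with 0.92 for Fkbp5 and 0.96 for Pdk4 at ZT0 and -0.99 for Fkbp5 and -0.39 for Pdk4 at ZT12. Whether Pdk4 and Fkbp5 differ from each other in these gaps was not tested. Within groups their correlation was r = 0.41 (rho = 0.14; permutation, adjusted p = 0.186 and 0.716), with 0.57 in aged and -0.22 in young mice, and without the pair of mice farthest out in Pdk4 it was 0.25. Without aged mouse 3 of ZT0 it passed (r = 0.54, adjusted p = 0.0409).

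Of the glucocorticoid-induced genes, 6 of 13 tested differed in course between the ages, against 2.59% of all genes, among them Tsc22d3, Fkbp5 and Per1. At ZT20 0 of 13 passed (limma, 3 with an unadjusted p under 0.05). That is near the 0.99% of all genes called higher in aged cells and is no result about the list. Their median difference was 0.15, against -0.02 over all genes. Of the list of insulin and FOXO genes, 0 of 13 differed in course (limma, 2 with an unadjusted p under 0.05). That is near the 2.59% of all genes and is no result about the list.

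Among enzymes of fatty acid oxidation, Cpt1a and Eci2 stood apart at ZT20. Eci2, an isomerase that prepares unsaturated fatty acids for oxidation, was at 8.51, 8.85, 8.59 and 8.69 in aged cells, against 7.94, 7.97, 8.04 and 8.01 in young cells. These groups did not overlap, and the difference was 0.67 ± 0.14 (limma adjusted p = 0.00847). The other 17 of 19 tested genes did not pass at ZT20, and the median of the 19 was 0.21, against -0.02 over all genes. The share called higher in aged cells at ZT20 was thus 2 of 19, against 0.99% of all genes. In course, 2 of 19 differed between the ages, against 2.59% of all genes, Eci2 (limma adjusted p = 0.00225) and Cpt1a. Cpt1a was already counted above with the fuel-switch set, so these shares are not separate from that result. In level over the day 0 of 19 passed, against 18.6% of all genes (limma; 3 with an unadjusted p under 0.05, median 0.01).

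Of the pyruvate dehydrogenase switch, 2 of 12 tested genes differed in course (2.59% of all genes) and 2 were higher in aged cells at ZT20 (0.99% of all genes), and in both cases these were Pdk4 and Pdk1. Pdk4 was already counted above with the fuel-switch set. Pdk1, the kinase isoform known as a target of hypoxia signals, was at 9.12, 9.35, 9.06 and 9.23 in aged cells at ZT20, against 8.42, 8.26, 8.54 and 8.87 in young cells (0.67, limma adjusted p = 0.000278). At ZT8, where Pdk4 did not pass, Pdk1 was at 9.05, 9.47, 9.14 and 9.25 in aged cells, against 8.57, 8.45, 8.47 and 8.58 in young cells. Those groups were fully apart as well (0.71, limma adjusted p = 9.4e-05). Over the day 4 of the 12 differed in level, against 18.6% of all genes: the phosphatase genes Pdp2 (-0.39) and Pdp1 (0.32), the complex subunit gene Pdha1 (0.17) and Pdk1 (0.24).

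Of 19 tested PPAR targets of lipid handling, 4 differed in course, against 2.59% of all genes. They were Pdk4, Angptl4 and Cpt1a, described above, and Txnip. The share thus mostly recounts genes of the fuel-switch set and is no separate support. Txnip, which restrains glucose uptake, averaged 10.63 ± 0.49 in aged and 11.86 ± 0.12 in young cells at ZT8 (-1.24, limma adjusted p = 0.000237). The median of the list at ZT20 was 0.21, and the 3 members that rose there were Pdk4, Angptl4 and Cpt1a. In level 4 of 19 differed, which is near the 18.6% of all genes and is no result about the list. Lpl, Acsl4 (0.54) and Plin2, a lipid droplet coat protein (0.52), were higher in aged cells and Txnip (-0.37) lower. In 3 other lists the share that differed in level was near the 18.6% of all genes and is no result about the lists. These were 2 of 13 genes of triglyceride lipolysis, Lpl and Mgll (0.45), 2 of 9 of fatty acid synthesis, Scd1 (0.45) and Acly (0.21), and 1 of 4 of the uncoupling protein family, Slc25a30 (0.26).

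Among PPAR receptors and partners, 6 of 11 tested genes differed in level, against 18.6% of all genes, 4 of them higher and 2 lower. Pparg, the receptor of fat and sebaceous cells, was 0.48 ± 0.08 higher (limma adjusted p = 4.88e-06), and Ppara was lower (-0.24, adjusted p = 0.0188). Ppara was also the 1 gene of this list that differed in course (adjusted p = 0.0028). At ZT0 Ppara averaged 7.53 ± 0.27 in aged and 8.24 ± 0.31 in young cells (SD, n = 4 each). The difference was -0.71 (limma adjusted p = 0.00137). It was lower in aged cells at ZT4 as well (-0.63, limma adjusted p = 0.00287). At ZT20 Ppara averaged 7.96 ± 0.24 in aged and 7.66 ± 0.09 in young cells. There the ages overlapped, and the difference of 0.29 did not pass (limma adjusted p = 0.404).

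**Figure D4:**
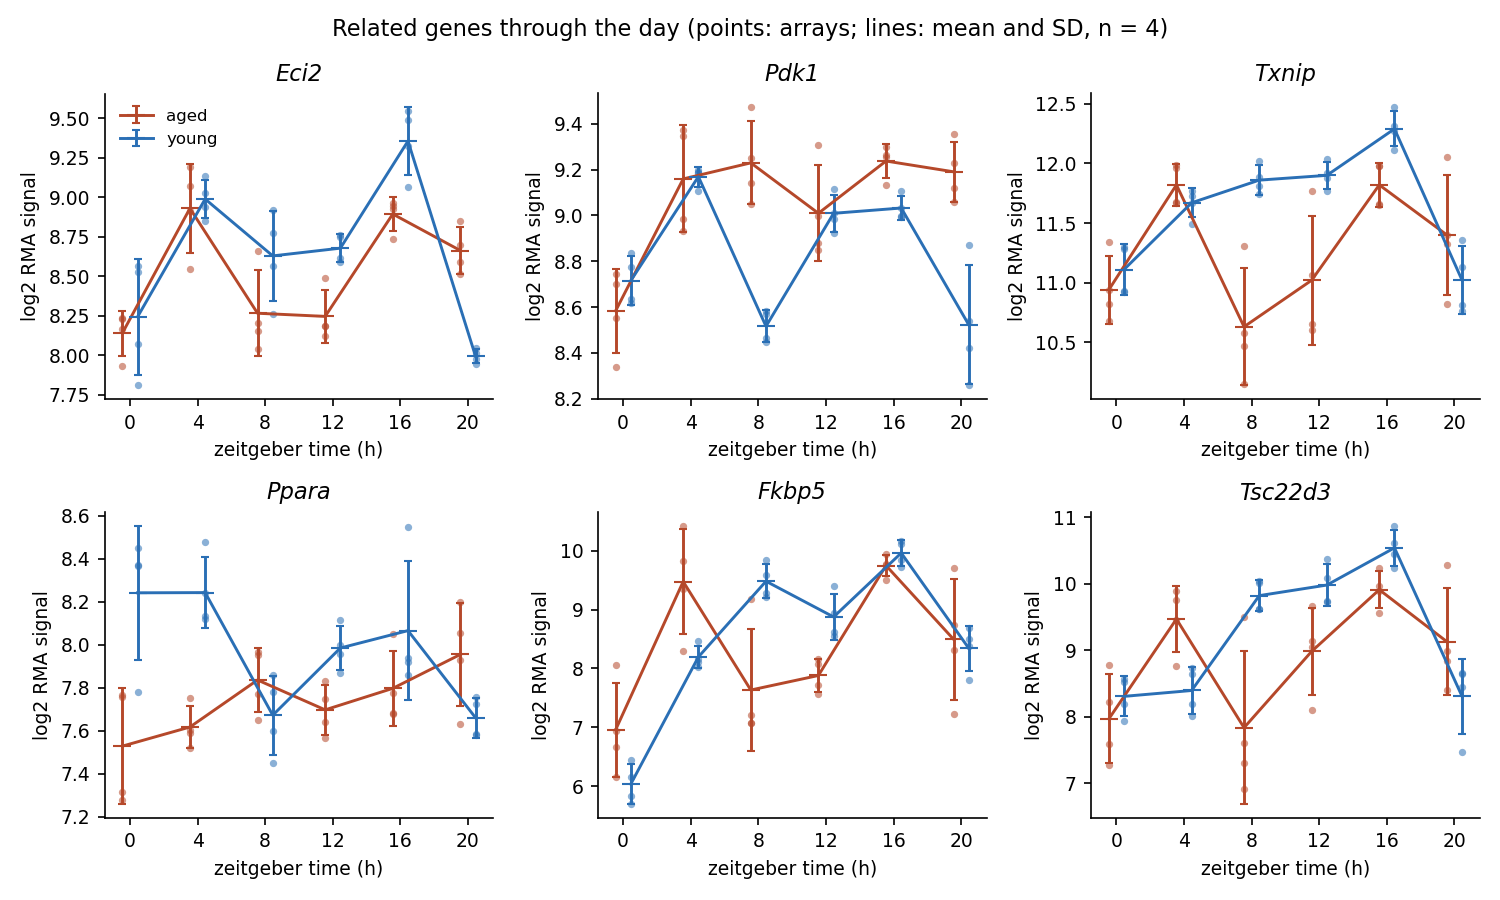
Log2 RMA signal of 6 related genes against zeitgeber time, with aged mice in red to the left and young mice in blue to the right; points are arrays, and lines join means with SD (n = 4). Eci2 and Pdk1 stand above young in aged cells at ZT20 (0.67 each), while Fkbp5 and Tsc22d3 stand below young at ZT8.

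The genes most like each member over all 48 arrays were found by Pearson's r, as a description. For Pdk4 these were Fam161a (0.81), Art3 (0.78) and Angptl4 (0.78), and for Angptl4 they were Eci2 (0.84), Pdk4 (0.78) and Hadhb (0.73). Cpt1a was most like Eci2 (0.72), Coq8a (0.71) and Angptl4 (0.71). Lpl was most like Mgst1 (0.89), Igfbp2 (0.86) and Akr1c19 (0.86), and Ppard was most like Capns1 (0.68), Mgst2 (0.67) and Eml2 (0.66). These arrays share age and time, so r includes both.

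Mgst1, the gene most like Lpl, is on the list of upper follicle and sebaceous gland markers. It was 0.96 ± 0.15 higher in aged cells (limma adjusted p = 2.98e-06) and was the 1 of 3 tested markers of that list to differ in level. The list's summed level was 10.98 to 12.29 in aged and 11.19 to 12.31 in young arrays. Lpl passed in level with the score of that list in the model as well as with the T cell score. In the list's score Mgst1 (1.95 times as high in aged cells) is averaged with Plet1 (1.095) and Lrig1 (0.91), which did not pass. A change in cell mixture that Mgst1 alone follows was thus not tested.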

How the data were processed

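RNA of 48 mice was measured on 1-colour arrays. The deposited values are log2 probe set signals that the authors made with RMA, per the submitters' processing notes. Not given in the sources used here are its version, the dates of hybridisation and whether both ages were normalised together. They were used as deposited. Of 45141 probe sets, 28898 had 1 gene symbol, 551 had several and 15692 were not listed. The brightest probe set stood for each of 17097 genes, and the dimmest 25% of genes were left out, which leaves 12823.

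Genes were fitted over all arrays in R 4.3.3 with lmFit and eBayes of limma 3.58.1, tested on simulated data, with p adjusted by Benjamini-Hochberg over all genes at a threshold of 0.05. One model held a mean per age and time. Another held a mean and a 24 h wave per age, and gave the level and the 24 h tests. A separate model with a 12 h wave added gave only the 12 h tests. An adjusted p at a given time covers all genes at that time. Intervals are 95%. Correlations used Python 3.11.15. The genes, the lists and the 12 h component were chosen with earlier results of these data known.

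Named genes are the members, Fkbp5, up to 3 genes of each list with the smallest p, the 3 genes most like each member (clone names passed over), and cell type markers at the floor or most abundant. List genes beyond these 3 that are named were chosen after their values were seen. Alternatives were 2 other filters on dim genes, the mean of all probe sets, each other probe set, median centring, cyclic loess, array weights, trended and robust eBayes, a replicate block, cell mixture scores, each age alone, each array left out, and leaving out the 4 arrays of lowest weight. The T cell score and the upper follicle and sebaceous gland score were added after seeing the data. Labels number the mice 1 to 4 in each group, and mice were treated as independent.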

Additional observations from a re-analysis of the deposited data

Results flagged for a closer look

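The daily course differed between the ages, by the age by time term of the limma fit, in 13 of 108 tested genes of the members and pathway lists, against 332 of 12823 over all genes (2.59%). The members and lists were chosen with earlier results of these data known, so this share is a description only. Among the fuel-switch genes the adjusted p was 0.000338 for Pdk4, 0.001647 for Angptl4 and 0.01357 for Cpt1a. Among related metabolic genes it was 0.0005192 for Pdk1, 0.001764 for Txnip, 0.002254 for Eci2 and 0.002804 for Ppara. Among glucocorticoid-induced genes it was 0.001522 for Tsc22d3, 0.001864 for Fkbp5, 0.02301 for Per1, 0.02363 for Ddit4, 0.0259 for Cdkn1c and 0.04089 for Klf9.

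In 5 of 132 groups of 4 mice, 1 array lay far from the other 3 (Dixon's test), and chance alone marks about 1 group in 20. Fkbp5 was at 9.184 in the highest aged array at ZT8, and Eci2 at 8.737 in the lowest aged array at ZT16. Pdk1 was at 9.105 in the lowest young array at ZT4. Ppara was at 7.778 in the lowest young array at ZT0 and at 8.548 in the highest young array at ZT16. None of these far arrays belonged to Pdk4, Angptl4, Cpt1a, Lpl or Ppard.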

How the results depend on the processing

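Of 4462 recomputed single values, 4331 kept their direction and side of the threshold, 80 lost and 37 gained a call and 14 changed sign, none of the 14 past the threshold. The count of members that differed in level, 2, was 1 with arrays centred on their median or with the T cell score, and 1 to 2 with arrays left out. The aged 12 h count, 2, was 1 with no filter on dim genes, with trended and robust eBayes, with the replicate block, with cell mixture scores and with each age fitted alone, and 1 to 3 with arrays left out. The calls at single times, 8 in all, were 5 with the T cell score, 12 with array weights and 6 to 9 with arrays left out. The pairs of members that correlated, 3, were 1 to 4 with arrays left out. Same-numbered mice had a mean correlation of -0.0007 (81 of 264 pairs over 0.1, range -0.46 to 0.49), against 0.0009 for other numbers. The numbers thus showed no pairing on average. A mean cannot show whether some groups shared a batch, and this was not tested. The replicate block changed no other count. Signs turned for Angptl4 at ZT8 with its other probe set (0.18) and for Lpl with Angptl4 with the mean of all probe sets (r = 0.15). With arrays left out, r ranged from -0.152 to 0.0107 for Ppard with Angptl4, from -0.114 to 0.0317 for Cpt1a with Lpl, from -0.145 to 0.0144 for Lpl with Angptl4 and from -0.0776 to 0.0662 for Ppard with Fkbp5. The cause of these changes was not tested.

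Counts over all genes moved more, mostly upward with array weights. The range over all settings and left-out arrays was 560 to 2327 for the young 24 h wave (804 as reported), 116 to 602 for the aged one (174), 0 to 4 for their difference (0), 1612 to 4859 for time of day in young (2242) and 659 to 3598 in aged cells (1072), 74 to 1573 for the course (332), 395 to 1621 for the young (552) and 496 to 2336 for the aged 12 h wave (741). Between the ages it was 263 to 1079 at ZT0 (665), 637 to 1884 at ZT4 (1053), 126 to 1128 at ZT8 (275), 105 to 356 at ZT12 (168), 125 to 1569 at ZT16 (423) and 91 to 331 at ZT20 (174). The second Lpl probe set lay under the limit for dim genes, so it is a weak check of its level.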
